A study of Mus musculus with 27 samples.

Results

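The integrated stress response and the serine synthesis pathway were followed through 10 genes in the tibialis anterior muscle of mice after volumetric muscle loss (VML), an injury in which so much muscle is removed that it does not regenerate. The genes were Atf4, Ddit3, Chac1, Trib3, Asns, Phgdh, Psat1, Mthfd2, Ddit4 and Sesn2, taken from the table by their gene names, and 10 of its 54532 genes carried reads under these names. All 10 were detected in all 27 samples. A row of 105 bases that is also named Ddit3 and lies inside the gene was listed at 0 in each sample and was not used further.

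The samples were RNA from the tibialis anterior of 8-week-old male C57BL/6 mice, without any transgene or drug in any group. There were 5 samples without injury, and 5, 6, 6 and 5 samples taken 3, 7, 14 and 21 days after 40% of the muscle was excised. The sources differ on whether 1 or both legs were injured, and they do not say that each sample came from its own animal, so p-values measure the spread between these samples. RNA was measured in bulk as FPKM, a fragment number divided by gene length and by a read number per sample, and the totals behind it ranged from 14376395 to 24436763 reads per sample.

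In the integrated stress response, kinases that sense amino acid shortage, unfolded protein, virus or heme loss phosphorylate the translation factor eIF2, which slows protein synthesis while the transcription factor ATF4 is translated more. ATF4 then switches on genes for amino acid synthesis and import, among them Asns, Phgdh and Psat1, and with prolonged stress the pro-death factor CHOP, which Ddit3 encodes. Because ATF4 is controlled largely through translation, its transcript and its activity are separate quantities, and only transcripts were measured here. In skeletal muscle this programme is known from mitochondrial disease and fasting, while serine synthesis supplies nucleotide and glutathione synthesis in dividing and activated cells.

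ATF4 binds next to C/EBP factors at a composite element whose core is TGATGNAA, where N is any base, and the promoters of the 10 genes were searched for it on both strands to show which of them hold it. The promoters were those of RefSeq on GRCm38.p6, 250 bases before to 50 bases after each start, with 10 of 10 genes matched by symbol. The core stood in the promoters of Asns, Chac1 and Trib3, against 3.97% of all 32851 promoters of this length. The related letters TGACGNAA were found in Chac1 and in 1.59% of all promoters. The windows around them are given 5′ to 3′ on the strand of the gene, with the matches in capitals.
Asns, chr6:7693214-7693243, minus strand: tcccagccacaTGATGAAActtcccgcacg
Chac1, chr2:119350992-119351081, plus strand: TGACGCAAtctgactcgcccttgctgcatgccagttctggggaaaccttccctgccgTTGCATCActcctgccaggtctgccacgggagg
Trib3, chr2:152344029-152344058, minus strand: attagctcaggtTTACATCAgccgggcggg

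The match in Asns ran along the gene from position -23, and that in Chac1 ran against it from position -193, both counted from the RefSeq start. In Trib3 the match lay against the gene from position 15 after that start. The table's own annotation places all 3 starts differently. There the Asns match falls inside the gene, 22 bases from its start, the Trib3 match 7 bases before the gene and the Chac1 match 173 bases before it. The letters TGATGNAA were not in the windows of the other 7 genes. A match is a description of the sequence and not a measured binding site.

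At day 3, 6 of the 10 genes were upregulated and 3 were downregulated relative to uninjured muscle, in a comparison in which 43.2% of the 14630 tested genes were called (23.4% higher and 19.8% lower). The genes that rose were Asns, Phgdh, Psat1, Mthfd2, Ddit4 and Sesn2, and those that fell were Atf4, Ddit3 and Chac1. Trib3 did not pass the test. Calls were made with limma on log2(FPKM + 1), with an adjusted p of 0.05 over all tested genes as the threshold. Every log2 fold change below is on that scale unless stated otherwise, and the scale understates the change of genes near 0. The median of the 10 changes was 1.13 on the log2 scale, against 0.01 over all tested genes.

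**Figure D1:**
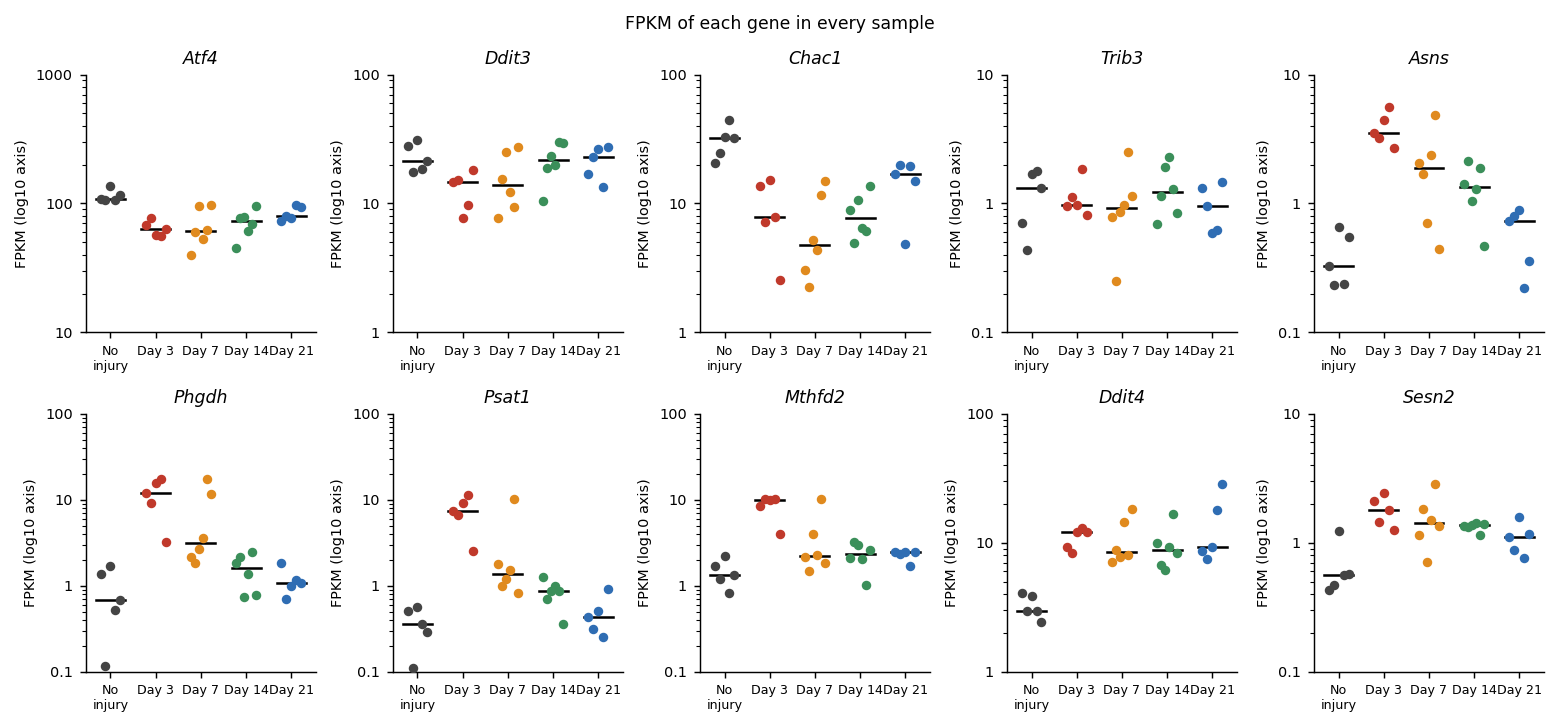
Level of each of the 10 genes in FPKM (log10 axis) in every sample, by group, with a line at the median of each group. Phgdh, Psat1, Asns and Mthfd2 were highest at day 3, Ddit4 stood above the uninjured samples at all 4 time points, and Atf4 and Chac1 stood below them.

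The enzymes of serine synthesis showed the largest rises of the 10. Phgdh encodes the enzyme that commits glycolytic carbon to serine. Its level was 1.36, 0.117, 1.68, 0.523 and 0.687 FPKM in the 5 uninjured samples and 12.1, 9.30, 15.8, 17.3 and 3.21 FPKM at day 3. Every sample at day 3 was above every uninjured sample, and replicate 5 was the lowest of them. The mean rose from 0.873 ± 0.636 (SD, n = 5) to 11.5 ± 5.62 FPKM (n = 5), a 13.2-fold ratio of means, with a log2 fold change of 2.65 ± 0.43 (SE, adjusted p = 3.33e-05). Psat1 encodes the aminotransferase of the next step. It stood at 0.512, 0.109, 0.561, 0.363 and 0.289 FPKM without injury and at 7.33, 6.58, 9.26, 11.4 and 2.51 FPKM at day 3. The groups did not overlap, and replicate 5 was again the lowest. The log2 fold change of Psat1 was 2.52 ± 0.34 (adjusted p = 5.12e-06) and the ratio of means 20.2, although uninjured samples held only 8 to 29 reads of it. Psph, which completes the pathway and is not a member, fell by 0.59 on the log2 scale (adjusted p = 0.00801) from a mean of 3.98 to 2.31 FPKM. Its value was 0.02 when FPKM was rescaled to a common sum per sample, so the fall of Psph rests on the scaling described below.

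Asns and Mthfd2 followed the same course. Asns, which makes asparagine from aspartate and glutamine, was at 0.329, 0.234, 0.654, 0.238 and 0.550 FPKM without injury, with 8 to 22 reads per sample. At day 3 it was at 3.54, 3.22, 4.46, 5.65 and 2.70 FPKM, all above the uninjured range. Its log2 fold change was 1.79 ± 0.27 (adjusted p = 1.24e-05). Mthfd2, a mitochondrial enzyme that oxidizes the one-carbon unit released from serine, was at 1.68, 1.18, 2.20, 0.815 and 1.33 FPKM without injury. At day 3 it was at 8.48, 10.3, 9.85, 10.1 and 4.003 FPKM, with 4 samples close together and replicate 5 apart below them. The log2 fold change of Mthfd2 was 1.93 ± 0.30 (adjusted p = 1.95e-05).

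These 4 enzymes declined with time. At day 7 the lowest, median and highest values were 1.86, 3.14 and 17.6 FPKM for Phgdh, 0.830, 1.36 and 10.3 for Psat1, 0.440, 1.87 and 4.84 for Asns, and 1.47, 2.21 and 10.3 for Mthfd2. Replicate 5 held the highest value of all 4, and the next sample below it was at 11.8 FPKM for Phgdh, 1.79 for Psat1, 2.38 for Asns and 3.96 for Mthfd2. Phgdh, Psat1 and Asns were called higher at day 7, with log2 fold changes of 1.69 ± 0.41, 1.11 ± 0.33 and 0.96 ± 0.25 and adjusted p-values of 0.00385, 0.0138 and 0.00649. Without replicate 5 of day 7 the value of Psat1 was 0.72 (adjusted p = 0.0228), and its call was lost when day 7 and uninjured samples were fitted alone (adjusted p = 0.0621). Mthfd2 was not called (0.73 ± 0.28, adjusted p = 0.0532), but passed with adjusted p-values down to 0.0261 when uninjured replicate 3, day 3 replicate 5, day 7 replicate 2 or 6, or day 14 replicate 5 was left out. Without day 7 replicate 5 its value was 0.43 (adjusted p = 0.158). At day 14 the medians were 1.60, 0.872, 1.35 and 2.37 FPKM in the same order, and Asns alone was called (0.73 ± 0.25, adjusted p = 0.0429). That call was lost without any of replicates 1, 2, 4 and 5 of the uninjured group or of day 14, with adjusted p-values up to 0.0979. Other scalings lost it too: quantile normalization (limma adjusted p = 0.0909), own totals of reads (0.0567) and a common sum of FPKM (0.0792). The same held with voom weights (0.0749) and with no filter on low values (0.0985). At day 21 the log2 fold changes of the 4 genes were 0.11 to 0.45, and none was called. Day 21 was below day 3 for all 4, by 2.40 ± 0.43 for Phgdh, 2.40 ± 0.34 for Psat1, 1.61 ± 0.27 for Asns and 1.48 ± 0.30 for Mthfd2 (adjusted p = 2.71e-04, 4.63e-05, 1.38e-04 and 7.51e-04). These were the only members called in that comparison, in which 25.5% of all tested genes were called and 16.2% were lower.

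The step from day 3 to day 7 depended on 2 samples. Among all samples, 0 of the 10 genes were called between these days, against 0.0478% of all genes. Without replicate 5 of day 7, 4 genes fell from day 3 to day 7, with log2 changes of -1.79 for Psat1 (adjusted p = 2.05e-05), -1.498 for Mthfd2 (6.52e-05), -1.05 for Asns (0.00179) and -1.30 for Phgdh (0.0186) and with 12.2% of all genes called. Without replicate 5 of day 3 as well, the same 4 genes were called, where Psat1 fell by 2.08 and 15.5% of all genes were called. With sample quality weights 5 were called, Chac1 among them, with 12.9% of all genes called. Neighbouring days after day 7 were not separated: 0 members were called from day 7 to day 14 (with 0.335% of all genes called, 0.116% higher and 0.219% lower) and 0 from day 14 to day 21 (0.00% called).

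**Figure D2:**
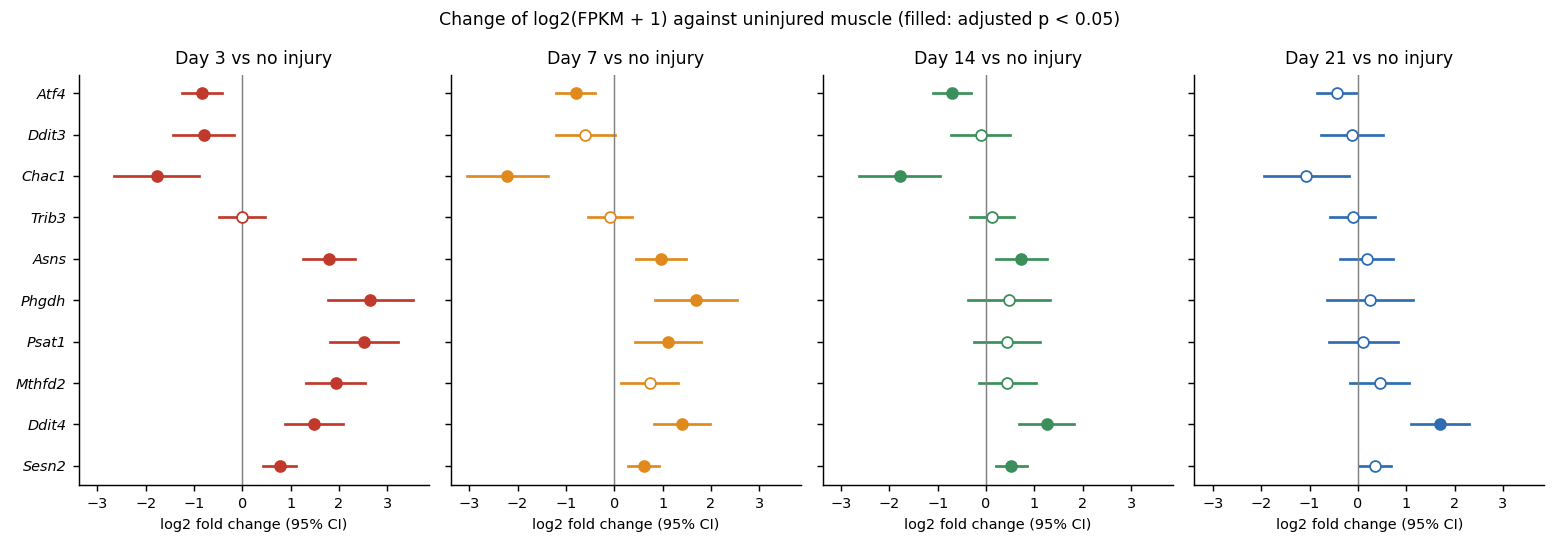
Log2 fold change of each gene against uninjured muscle at days 3, 7, 14 and 21, with 95% confidence intervals from limma, and filled points for genes called at an adjusted p of 0.05. At day 3, 9 points are filled, and at day 21 that of Ddit4 is the only filled point, at 1.69.

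The samples that stood apart for these enzymes also stood apart for cell type markers. The summed FPKM of 8 macrophage markers was 22.7 to 35.6 in uninjured samples. After injury it was 448 to 2517, 62.8 to 2426, 58.8 to 139.6 and 47.1 to 79.6 over the 4 successive time points. All 8 of these markers rose at day 3, as did 6 of 6 proliferation markers, and none was at 0 on average in any group. Markers of other cells rose too. Of 6 fibroblast markers 5 were higher (summed levels of 55.9 to 140.1 FPKM without injury and 488 to 966 at day 3), of 5 neutrophil markers the 3 tested were higher (0.456 to 3.93 and 19.2 to 37.6 FPKM) and of 4 satellite cell and myoblast markers 3 were higher (16.9 to 25.7 and 74.6 to 294 FPKM). The neutrophil marker Ly6g was listed at 0 in each uninjured sample. Of 5 endothelial markers 0 were higher and 2 lower, and of 4 adipocyte markers 3 were tested and 0 were called. Replicate 5 of day 3 held the lowest macrophage sum of its group, 448 against a median of 1701, and replicate 5 of day 7 the highest of its group, 2426 against a median of 319.6. By correlation over all tested genes, these libraries were nearest to the other group, day 3 replicate 5 to day 7 and day 7 replicate 5 to day 3. In all, 9 of the 27 samples were nearest to a group other than their own. The myofibre markers went the other way, with summed levels of 84721 to 99931 FPKM without injury and 21502 to 63318 at day 3. All 8 were lower as deposited, 6 by own totals and 3 by the common sum. The part of cell composition in the rise of the 4 enzymes was not tested, and in bulk tissue more cells of a type and more RNA per cell cannot be told apart.

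Phgdh left the other enzymes in a single library. In replicate 6 of day 7 it was at 11.8 FPKM, above 2 of the 5 samples of day 3, while Psat1 was at 0.830, Asns at 0.440 and Mthfd2 at 1.84 FPKM, of which Psat1 and Asns were the lowest of that group. Without replicate 6 and both replicates 5 named above, a choice made after values of these libraries were seen, Phgdh was still called higher at day 7, by 0.98 on the log2 scale (adjusted p = 0.00616), in place of 1.69.

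**Figure D3:**
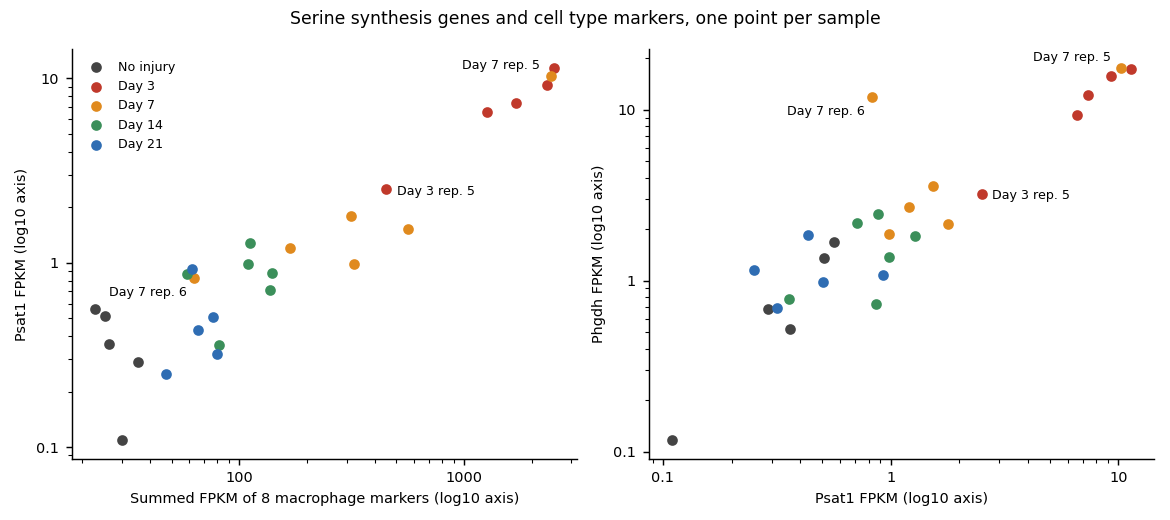
Psat1 against the summed macrophage markers and Phgdh against Psat1, all in FPKM on log10 axes with 1 point per sample. Day 3 replicate 5 sits below the other day 3 samples, day 7 replicate 5 sits among them, and day 7 replicate 6 shows 11.8 FPKM of Phgdh beside 0.830 FPKM of Psat1.

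Ddit4 stayed upregulated at every time point. It encodes REDD1, an inhibitor of mTORC1 that stress, hypoxia and glucocorticoids induce. Its level was 4.06, 2.98, 3.88, 2.96 and 2.41 FPKM without injury and 9.23, 8.40, 12.2, 12.9 and 12.1 FPKM at day 3. At days 7 and 14 the lowest, median and highest values were 7.06, 8.46 and 18.4, and 6.11, 8.80 and 16.7 FPKM. At day 21 the 5 samples were at 8.64, 7.49, 9.21, 18.01 and 28.4 FPKM, and replicates 4 and 5 stood above the other 3. Every injured sample exceeded every uninjured sample. The log2 fold changes were 1.49 ± 0.29, 1.399 ± 0.28, 1.25 ± 0.28 and 1.69 ± 0.29 from day 3 to day 21, with adjusted p-values of 2.51e-04, 9.66e-04, 0.00341 and 0.00360. At day 21 it was the only member called, where 3.43% of all tested genes were called and 1.74% were higher.

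Sesn2 encodes a leucine sensor that also restrains mTORC1. It was at 0.432 to 1.23 FPKM without injury, where replicate 3 lay apart from the other 4 samples (at most 0.570), and at 1.26 to 2.44 FPKM at day 3. The groups at day 3 did not overlap, and the log2 fold change was 0.77 ± 0.16 (adjusted p = 5.36e-04). Smaller rises were called at day 7 (0.61 ± 0.16, adjusted p = 0.00580) and day 14 (0.52 ± 0.16, adjusted p = 0.0216), but not at day 21 (0.35 ± 0.16, adjusted p = 0.228). The call at day 14 was lost without replicate 1 or replicate 2 of the uninjured group, and with quantile normalization (limma adjusted p = 0.0864).

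The transcript of Atf4 itself was lower in the deposited FPKM. It was the most abundant of the 10 per gene length in each group. Its level was 107, 106, 137, 106 and 116 FPKM without injury and 68.1, 76.6, 56.8, 55.6 and 63.6 FPKM at day 3. The lowest, median and highest values were 40.1, 61.4 and 97.3 at day 7 and 45.4, 73.0 and 95.4 at day 14, and the samples of day 21 were at 73.2, 79.3, 77.6, 97.5 and 94.6 FPKM. In the deposited FPKM all injured samples were below all uninjured samples. Relative to each sample's own total of reads the groups overlapped at every time point. Day 3 replicate 2 held 2953 Atf4 reads of 14376395 and day 21 replicate 4 held 3455 of 16077884. Uninjured replicate 1 held 3373 of 17830008. The log2 fold changes of the earlier 3 time points were -0.83 ± 0.20, -0.80 ± 0.19 and -0.71 ± 0.19 (adjusted p = 0.00179, 0.00371 and 0.0120). At day 21 it was -0.44 ± 0.20 and did not pass (adjusted p = 0.226). The deposited values did not overlap, and their exact two-sided permutation test gave p = 0.00794, the smallest it can give here.

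Chac1, which degrades glutathione and is known as a strong target of ATF4 and CHOP, showed the largest decrease. It was at 20.8, 24.8, 32.8, 44.1 and 32.4 FPKM without injury and at 13.7, 7.17, 15.2, 7.86 and 2.53 FPKM at day 3. Its lowest, median and highest values were 2.23, 4.79 and 14.9 at day 7 and 4.90, 7.69 and 13.6 at day 14. At day 21 it was at 17.01, 19.7, 4.85, 19.5 and 14.9 FPKM, with replicate 3 far below the others. No injured sample reached the lowest uninjured value in the deposited FPKM. Relative to each sample's own total of reads the groups overlapped at days 3, 7 and 21. Day 3 replicate 3 held 658 Chac1 reads of 19819115 and day 21 replicate 2 held 430 of 14529244. Uninjured replicate 1 held 453 of 17830008. The log2 fold changes were -1.78 ± 0.43, -2.22 ± 0.41 and -1.78 ± 0.41 at days 3, 7 and 14 (adjusted p = 0.00152, 4.86e-04 and 0.00395). At day 21 the value was -1.07 ± 0.43 and was not called (adjusted p = 0.159, exact permutation p = 0.00794).

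Ddit3 moved less. It ranged from 17.5 to 30.8 FPKM without injury and from 7.68 to 18.3 at day 3, and these ranges overlapped. Its log2 fold change was -0.80 ± 0.31 at day 3 (adjusted p = 0.0381, and up to 0.120 without a single sample, with the call lost without replicate 1, 3 or 5 of the uninjured group or replicate 3 or 4 of day 3) and -0.60 ± 0.30 at day 7, where it was not called (adjusted p = 0.128, but 0.0446 without replicate 6 of day 7). At days 14 and 21 it was -0.11 and -0.12. Ddit3 shares 68 bases with Mars on the opposite strand, and reads of the 2 genes cannot be told apart there because the libraries did not keep the strand. Trib3, a pseudokinase that restrains ATF4 and CHOP, ranged from 0.437 to 1.80 FPKM without injury, with 16 to 47 reads, and from 0.252 to 2.51 FPKM after it. It was not called at any time point, and its log2 fold change at day 3 was -0.003 with a 95% interval of -0.47 to 0.47.

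Counting samples in place of fitting them, 8 of the 10 genes had no overlap with the uninjured samples at day 3 (6 above and 2 below), where 36.3% of all tested genes had none. The count was 5 at day 7, 3 above and 2 below, against 12.6% of all genes (7.25% above and 5.37% below). It was 3 at day 14, 1 above and 2 below, against 15.7% (7.67% and 8.05%). It was again 3 at day 21, 1 above and 2 below, against 10.4% (5.26% and 5.13%). Ddit4, Atf4 and Chac1 made up the 3 at days 14 and 21. These counts are of the deposited FPKM. By own totals of reads, Atf4 overlapped with uninjured muscle at days 3, 7, 14 and 21, and Chac1 at days 3, 7 and 21. By the fit, 7 of the 10 members were called at day 7 (5 higher and 2 lower), where 29.4% of all tested genes were called (15% higher and 14.4% lower). At day 14, 5 members were called (3 higher and 2 lower), where 20.3% of all genes were called (9.02% and 11.3%). The 4 comparisons with uninjured muscle share their control samples.

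The falls of Atf4, Ddit3 and Chac1 at day 3 depended on how samples were scaled, whereas the 6 rises were called under each scaling tried. The deposited FPKM were scaled to read numbers that differed from each sample's own total, by a factor whose group mean was 0.782 for uninjured muscle and 1.25, 1.18, 1.04 and 0.897 over the successive time points. When each sample's own total was used, the median of all genes at day 3 moved to 0.40, and when FPKM was rescaled to a common sum it moved to 0.51. With the common sum, 6868 of all tested genes were higher and 322 lower at day 3, in place of 3417 and 2899 as deposited. Counts of listed genes under these 2 scalings, given below, carry this shift of all genes. At day 3 Atf4 was then at -0.17 (adjusted p = 0.284) and -0.01 (0.948), Ddit3 at -0.18 (0.531) and -0.03 (0.920), and Chac1 at -1.16 (0.0246) and -1.01 (0.0524), so that the members called lower were 1 by own totals and 0 by the common sum. Atf4 was not called under either scaling at day 7 (-0.26 and -0.08) or day 14 (-0.31 and -0.24), whereas Chac1 was called lower under both at day 7 (-1.71 and -1.56) and day 14 (-1.402 and -1.33). At day 21 neither was called by own totals or by the common sum. Atf4 was at -0.24 under both (adjusted p = 0.404 and 0.637) and Chac1 at -0.87 under both (0.338 and 0.503). Relative to the median of all genes, the change of Atf4 at day 3 was -0.84 as deposited, -0.58 by own totals and -0.52 by the common sum. Asns, Phgdh, Psat1, Mthfd2, Ddit4 and Sesn2 were called higher at day 3 in 43 of 43 alternative analyses. Over the 27 samples the log2 level of Atf4 had r = -0.91 with the log2 of the scaling factor and that of Asns r = 0.88, values that share the library and the factor itself.

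**Figure D4:**
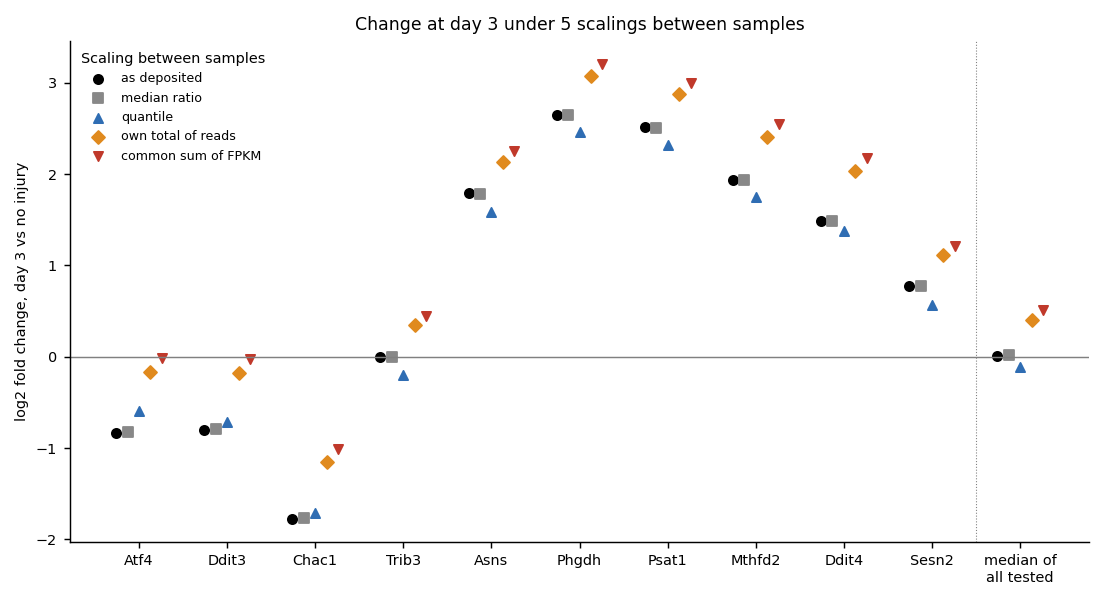
Log2 fold change at day 3 against uninjured muscle under 5 scalings between samples, for the 10 genes and for the median of all tested genes. Atf4 and Ddit3 moved from -0.83 and -0.80 as deposited to -0.01 and -0.03 when FPKM was rescaled to a common sum, and the 6 genes that rose stayed above 0.

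Ratios between genes of the same sample are free of this scaling, and those of the other 9 genes to Atf4 were computed after the values above were seen, with 36 exact two-sided permutation tests whose p-values are given unadjusted. They were taken on FPKM without the added 1, so their sizes cannot be set against the fold changes above. The gap is largest for genes near 0, and uninjured samples held 5 to 49 reads of Phgdh, 8 to 29 of Psat1 and 8 to 22 of Asns. Relative to Atf4 the log2 ratio at day 3 exceeded that of uninjured muscle by 5.22 for Psat1, 4.84 for Phgdh, 4.21 for Asns, 3.41 for Mthfd2, 2.59 for Ddit4 and 2.39 for Sesn2, each with no overlap and an exact permutation p of 0.00794, the smallest possible for 5 against 5. The ratio of Ddit3 to Atf4 differed by -0.02 (permutation p = 0.944). The ratio of Chac1 to Atf4 differed by -1.09 at day 3 (permutation p = 0.0556), -1.64 at day 7 (0.00866) and -1.20 at day 14 (0.00649). At day 21 the ratio to Atf4 exceeded that of uninjured muscle by 2.41 for Ddit4, 1.27 for Sesn2 and 1.17 for Mthfd2 (exact permutation p = 0.00794, 0.0159 and 0.00794). By the same unadjusted permutation test, the levels of Sesn2 and Mthfd2 at day 21, as log2(FPKM + 1), gave p = 0.0556 and 0.0159. Neither was called by limma, which adjusts over all tested genes. Their ratios also carry the level of Atf4, which was at -0.44 at day 21 as deposited.

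Within groups the members did not vary as a single set. Over the 27 deviations from group means on the log2 scale, the 45 pairs of members had r from -0.56 (Atf4 and Asns) to 0.78 (Psat1 and Mthfd2), with 30 above 0. Without replicate 5 of day 3 and of day 7 these pairs were at -0.68 and 0.14. Atf4 and Ddit3 had r = 0.75, and r = 0.79 without these libraries. Psat1 and Asns had r = 0.73, which was 0.55 without them. Psat1 and Phgdh had r = 0.69, which fell to 0.18, so it rested on these libraries. These are descriptions of samples that share library and scaling.

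Genes that act upstream of ATF4 showed small differences in both directions. Of 14 genes for eIF2 kinases, eIF2 and eIF2B subunits and phosphatase subunits, 2 were higher and 6 lower at day 3, with a median log2 fold change of -0.13. Of all tested genes 23.4% were higher and 19.8% lower at day 3, and 1.74% and 1.69% at day 21. These shares apply to each list count below as deposited. Eif2ak2, the kinase that senses double-stranded RNA, rose by 0.64 (adjusted p = 0.00876), and Ppp1r15b, a constitutive subunit of the eIF2 phosphatase, by 0.47 (0.00657). Ppp1r15a, its stress-induced counterpart, was at -0.77 (0.00111), Eif2ak1, the heme-regulated kinase, at -0.43 (0.0101), and Eif2ak3 and Eif2ak4, the kinases for unfolded protein and uncharged tRNA, were at 0.33 (0.0693) and 0.08 (0.657). Of the eIF2B subunits, which exchange the nucleotide of eIF2, Eif2b1, Eif2b4 and Eif2b5 were at -0.53, -0.55 and -0.52 and called, Eif2b2 and Eif2b3 at -0.11 and -0.14 and not called. Of the eIF2 subunits, Eif2s2 was called at -0.53, and Eif2s1 and Eif2s3x were at 0.25 and -0.03 and not called. None of the 6 falls held under the 2 scalings of the previous paragraphs: by own totals and by the common sum, 6 of the 14 genes were higher and 0 lower. The medians of all tested genes were then at 0.40 and 0.51. Under the deposited scaling 5 of the 14 were called at day 7, 2 at day 14 and 0 at day 21.

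Other transcription factors and regulators of the response went in both directions as deposited. Of 12 such genes, 6 rose and 4 fell at day 3, with a median of 0.21. Of all tested genes 23.4% rose and 19.8% fell. Gdf15, a secreted stress factor, rose by 1.65 ± 0.37 (adjusted p = 8.10e-04) and Atf3, a factor induced downstream of ATF4, by 1.58 ± 0.36 (9.97e-04). Vldlr, a lipoprotein receptor, was at -1.67 ± 0.24 (8.44e-06) and Ddit4l, the muscle paralog of Ddit4, at -1.35 ± 0.29 (6.34e-04), opposite in direction to Ddit4. Of these falls only that of Vldlr passed under both other scalings (-1.06 and -0.91), which called 6 of the 12 higher with 2 lower by own totals and 1 lower by the common sum. At day 21, 1 of the 12 was called, Cebpb at 0.91 (adjusted p = 0.00360).

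Of 9 amino acid transporters, 6 were tested and 4 rose at day 3, with a median of 0.80. Of all tested genes 23.4% were higher and 19.8% lower in that comparison. Slc7a5, the light chain of the leucine transporter, rose by 2.14 ± 0.30 (adjusted p = 7.02e-06) and its heavy chain Slc3a2 by 0.94 ± 0.19 (3.82e-04). Of 20 cytosolic tRNA synthetases, which charge tRNA and include known ATF4 targets, 1 rose and 5 fell, with a median of -0.10. The share that fell was near the 19.8% of all tested genes. Vars was at 0.66 (0.0139), Mars at -0.79 (2.17e-05) and Sars at -0.61 (5.20e-04). By own totals and by the common sum, 10 of the 20 synthetases were higher and 0 lower, with the medians of all tested genes at 0.40 and 0.51. At day 21 no transporter was called, and Mars and Yars were lower (-0.53 and -0.50, adjusted p = 0.0179 and 0.0268), calls that were lost under the same 2 scalings.

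Among 16 further enzymes of serine, glycine, folate and proline metabolism, 14 were tested and 6 rose and 3 fell at day 3, with a median of 0.04. Tyms, which makes thymidylate, rose by 1.44 ± 0.26 (adjusted p = 1.26e-04) and Mthfd1l, the mitochondrial partner of Mthfd2, by 1.32 ± 0.18 (5.50e-06). Mthfd1l went from a mean of 0.0328 to 1.65 FPKM. Aldh1l1, which removes formyl folate, was at -0.94 ± 0.21 (9.06e-04) and stayed called under the other scalings. Shmt2, the mitochondrial enzyme that takes serine to glycine, rose by 0.47 (0.0195), while its cytosolic counterpart Shmt1 was at -0.18 (0.354). By own totals 8 of the 14 were higher and 1 lower, and by the common sum 7 and 1, with the medians of all tested genes at 0.40 and 0.51. None of the 14 was called at day 21 under the deposited scaling.

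Of 19 chaperones and regulators of the endoplasmic reticulum, which the unfolded protein response induces, 13 rose and 2 fell at day 3, with a median of 0.79. Sdf2l1 rose by 2.002 ± 0.36 (adjusted p = 1.13e-04) and Pdia3 by 1.96 ± 0.25 (2.64e-06). Herpud1 and Dnajb9 were at -0.77 (9.61e-04) and -0.58 (0.0166), and neither was called by own totals or the common sum, each of which called 16 of the 19 higher and 0 lower. As deposited, 4 of the 19 were higher at day 7, 2 at day 14 and 0 at day 21, while the share of all tested genes called higher went from 23.4% at day 3 to 15%, 9.02% and 1.74%. The count at day 7 depended on the scaling, with 14 higher by own totals and 15 by the common sum. Under these scalings the medians of all tested genes were at 0.40 and 0.51 at day 3, and at 0.36 and 0.48 at day 7. The shares of all genes given here are those as deposited.

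Because glucocorticoids and p53 are known to induce Ddit4 and Sesn2, genes of these responses were set beside them. Of 10 glucocorticoid-responsive genes, 1 rose and 4 fell at day 3, with a median of -0.56. Mt1, a metallothionein, rose by 2.57 ± 0.45 (adjusted p = 7.37e-05), and Pdk4 and Klf15 were at -1.62 (5.52e-05) and -1.31 (8.70e-04). By own totals 4 were higher and 3 lower, and by the common sum 4 were higher and 0 lower, with the medians of all tested genes at 0.40 and 0.51. At day 21 Per1, a clock gene, was higher (1.26, 0.0146), and 3 genes were lower, with Pdk4 at -0.98 (0.0450) and Zbtb16 at -0.82 (0.0307). Own totals and the common sum each kept the call of Per1 and left 0 of these genes lower. Of 9 p53 targets, 5 rose and 2 fell at day 3, with a median of 1.15. Cdkn1a, an inhibitor of the cell cycle, rose by 2.97 ± 0.60 (3.13e-04) and Gadd45a by 1.80 ± 0.62 (0.0209), while Ccng1 and Mdm2 were at -1.11 (0.00146) and -0.45 (0.0286). These falls were lost by own totals and the common sum. Each of these scalings called 7 of the 9 higher and 0 lower, with all genes shifted upward as given above. At day 21, 4 of the 9 p53 targets were higher, with Gadd45a at 2.98 (0.00959) and Cdkn1a at 2.30 (0.0317), but 1 of the 9, Gadd45a, by own totals and by the common sum.

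The genes whose levels were most like those of each member over the 27 samples, by Pearson's r of log2(FPKM + 1), differed between members. For Psat1 they were Ccnb1 (r = 0.98), C5ar1 (0.98) and Gpr137b-ps (0.98), and for Asns Cd68, Hvcn1 and Sgpl1 (0.96 for each). For Phgdh they were Adap1, P2ry12 and Tnfaip8 (0.93 for each), and for Mthfd2 Bcat1 (0.94), Tubb3 (0.92) and Cndp2 (0.91). Cd68 and Ccnb1 are on the lists of macrophage and proliferation markers. Atf4 was most like Eif1 (0.96), Ak6 (0.93) and Mrpl42 (0.93), Ddit3 like Emc9 (0.92), Ndufv3 (0.91) and Mcee (0.91), and Chac1 like Pfkfb3 (0.91), Zfp180 (0.80) and Gm11611 (0.79). Ddit4 was most like Ewsr1 (0.85), Snrnp70 (0.83) and Slc12a4 (0.82), Sesn2 like Taf6l, Pld3 and Spg21 (0.85 for each), and Trib3 like Gss (0.72), Poc1a (0.68) and Desi1 (0.65). These values describe samples that share the time course, the library and its scaling.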

How the data were processed

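Total RNA of 27 tibialis anterior samples was sequenced after poly-A selection without strand information. The authors aligned reads with HISAT2 2.0.5, counted them per gene with featureCounts 1.5.0-p3 and deposited FPKM, whose genome build and scaling are not given in the sources used here. Gene coordinates were checked against GENCODE M21 on GRCm38 (98.3% the same). FPKM times gene length gave whole reads, within 0.01, for 100% of values, so each sample's own total was known. Groups and replicates came from the sample titles.

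FPKM was transformed to log2(FPKM + 1). Genes reaching 0.5 FPKM in 5 or more samples (14630) entered a limma 3.58.1 model (R 4.3.3) with a mean per group over all 27 samples and a variance trend. Time points were compared with uninjured muscle, with the preceding time point and, for day 21, with day 3, two-sided, with Benjamini-Hochberg adjustment over all tested genes at 0.05. Single genes were compared with exact permutation tests. On simulated data for day 3 against uninjured muscle, 97% of 200 genes changed 4-fold were recovered, with 13 false calls. Confidence intervals are 95% intervals of limma. The members, gene lists and tests were chosen with earlier results of these data known. The text names all 10 members, for each list the genes with the 2 largest increases and decreases called at days 3 and 21, all 14 genes of the eIF2 list, and for each member the 3 genes most like it. Shmt1 and Shmt2 lie outside this rule and were named after their values were seen. The result of 1 further marker list is not reported here. Alternatives changed the pseudocount, the filter, the scaling, the variance model, blocks of replicates and the samples used. Figures were drawn with matplotlib 3.10.9 and tables handled with pandas 2.3.3 in Python 3.11.15.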

Additional observations from a re-analysis of the deposited data

Results flagged for a closer look

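Of 50 sets of samples (10 genes in 5 groups), 6 held a sample farther from its neighbours than Dixon's 95% limit on the log2(FPKM + 1) scale, where chance gives 2.5. These were Psat1 at 10.3 FPKM in day 7 replicate 5, Mthfd2 at 4.003 in day 3 replicate 5, Mthfd2 at 1.72 in day 21 replicate 4, Chac1 at 4.85 in day 21 replicate 3, Sesn2 at 1.23 in uninjured replicate 3 and Sesn2 at 1.14 in day 14 replicate 5. The other 5 values of Sesn2 at day 14 lay between 1.32 and 1.42 FPKM.

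The effect of injury differed between day 21 and day 3 for 4 genes by the limma contrast of these days, which is the difference of their effects against the same uninjured samples. The differences were -1.61 for Asns, -2.40 for Phgdh, -2.40 for Psat1 and -1.48 for Mthfd2 on the log2 scale. The adjusted p-values were 1.38e-04, 2.71e-04, 4.63e-05 and 7.51e-04, and the 4 genes were lower at day 21 under the deposited scaling. For Ddit4 the difference was 0.20 (95% interval -0.40 to 0.81).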

How the results depend on the processing

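The fold changes against uninjured muscle were recomputed under 43 alternatives, of which the removal of day 3 replicate 5 with day 7 replicates 5 and 6 was chosen after seeing the data. Ddit4 at each time point, and Asns, Phgdh, Psat1, Mthfd2 and Sesn2 at day 3, were called in 43 of 43. Of the 5 members called at day 14, quantile normalization left 2, and own totals and the common sum left 3 each. At day 21, in place of 1 member, 2 were called with the replicate letter as a block, with the 2 groups fitted alone, or without those 3 libraries, and 4 with sample quality weights. From day 3 to day 7, in place of 0, 5 were called with quality weights (12.9% of all tested genes), 4 without both replicates 5 (15.5%) and 5 without the 3 libraries. The main fit called 0.0478% of all genes there, so more genes of every kind were called under these settings. For days 14 and 21 the shares of all genes under the alternatives are not given here, and the member counts are not set against them. With single samples left out, the count at day 14 was 3 to 5 (3 without uninjured replicate 1 or 2), and that from day 3 to day 7 was 0 to 4 (3 without day 3 replicate 5 and 4 without day 7 replicate 5).

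All changes of sign concerned Trib3 and Ddit3 in comparisons where the sign was not called. Trib3 at day 3 was 0.049 and 0.011 with pseudocounts of 0.1 and 0.5, 0.44 by the common sum, 0.35 by own totals, 0.025 with quality weights, 0.14 with voom weights and 0.051 without the 2 or the 3 libraries. By the common sum and by own totals Trib3 was 0.30 and 0.20 at day 7, and with quantiles -0.0072 at day 14. By the common sum Ddit3 was 0.084, 0.34 and 0.061 on days 7, 14 and 21. By own totals it was 0.27 and 0.061 on days 14 and 21, and with quantiles 0.094 and 0.00999. Without single samples Trib3 spanned -0.14 to 0.097 on day 3. Its day 7 values then spanned -0.26 to 0.041, and its day 14 values -0.024 to 0.22. Ddit3 spanned -0.21 to 0.073 on day 14 and, for day 21, -0.22 to 0.025. The cause of these shifts was not tested.

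Replicate numbers were not taken to pair the samples, since deviations of same-numbered samples had a mean r of 0.022 and 15 of 51 pairs lay above 0.1. With the number as a replicate block Ddit3 was called at day 7 (limma adjusted p = 0.0400), and with the letter as a block Atf4 at day 21 (0.0361).

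Depth limits Asns, Phgdh, Psat1, Trib3 and Sesn2 in uninjured muscle, which held 5 to 50 reads per sample.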
